A study of Mus musculus with 4 samples.

Results

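The microRNA genes mir-489 and mir-653 lie side by side in an intron of Calcr, the gene of the calcitonin receptor. The pair was taken by name from a table of 626 microRNA entries, each named by its hairpin precursor, and both entries were found. They were chosen by their counts, which were known to differ between the groups, so their counts and fold changes are given as a description and not as a test. Small RNA was sequenced in 4 samples of CGR8, a feeder-independent line of mouse embryonic stem cells, at passages 5 to 13. The labels give C57BL/6 as background strain and 129P2/OlaHsd as donor strain for all of them. The 2 day 8 samples were embryoid bodies (EBs), aggregates in which stem cells differentiate, kept without leukemia inhibitory factor (LIF) in 20% serum, for 2 days as hanging drops of 1000 cells and then for 6 days in suspension. The 2 day 0 samples were undifferentiated embryonic stem cells (ESCs) kept with LIF at 100 U/ml in 10% serum. All samples came from the same line, and an EB sample holds many aggregates of mixed cells.

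A microRNA is cut from a hairpin in a longer transcript, and for an intronic hairpin that transcript is often the pre-mRNA of the host gene. The mature strand guides Argonaute proteins to messenger RNAs that pair with its seed, bases 2 to 8, and lowers their output. Calcr encodes a G protein-coupled receptor best known from osteoclasts, where calcitonin restrains bone resorption, and from quiescent satellite cells, the stem cells of skeletal muscle. In mouse muscle, miR-489 is known for keeping satellite cells quiescent by repressing Dek. Less is established for miR-653, and no role of it is assumed here. Proximal mouse chromosome 6, where Calcr lies, also holds the imprinted genes Peg10 and Sgce.

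The mature and hairpin sequences are shown because they identify the microRNAs that the entries are named for and hold the seeds. They are taken from RefSeq on GRCm38.p6, which held both members. The microRNA release behind the counts is not given, so the sequences that reads were matched to may differ. In the 4 mature sequences, written 5′ to 3′, capitals mark the seed.
miR-489-5p: uGUCAUAUgugugaugacacuuucu
miR-489-3p: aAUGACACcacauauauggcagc
miR-653-5p: gUGUUGAAacaaucucuacug
miR-653-3p: uUCACUGGaguuuguuucagu
In the hairpins, capitals mark the mature forms, the 5p arm first.
Mir489: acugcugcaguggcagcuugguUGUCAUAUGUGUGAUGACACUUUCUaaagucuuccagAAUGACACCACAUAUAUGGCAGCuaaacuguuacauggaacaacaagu
Mir653: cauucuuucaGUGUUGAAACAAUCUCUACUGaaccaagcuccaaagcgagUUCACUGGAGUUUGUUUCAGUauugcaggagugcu
The 4 seeds differ from each other, so the members share an intron but no seed. The table counts per hairpin, and the reads of the 5p and 3p arms cannot be separated in it.

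The mature forms of the members had no close match in other hairpins. Against 1004 other mouse hairpins of the RefSeq table, 20-base windows of miR-489-5p had at least 4 mismatches, those of miR-653-3p at least 5, and those of miR-489-3p and miR-653-5p at least 6.

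On GRCm38, Mir489 spans 107 bases at chr6:3721897-3722003 and Mir653 spans 85 bases at chr6:3721301-3721385, both on the minus strand. The hairpins are 511 bases apart, with mir-489 first in the direction of transcription. Calcr runs over 79.0 kb of the same strand, at chr6:3685680-3764714. In Calcr-201, the GENCODE M21 transcript with most exons (16), both hairpins fall in the intron between exons 4 and 5, which is 4204 bases long (chr6:3718719-3722922). Mir489 begins 919 bases after the upstream exon, and Mir653 ends 2582 bases before the downstream exon. All 5 annotated Calcr transcripts include this intron, and their starts all lie upstream of both hairpins.

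The 2 start regions that RefSeq gives for Calcr are shown because either could drive a transcript that carries both hairpins. Each runs from 250 bases before to 50 after the start, on the minus strand of GRCm38.p6, and capitals mark the GC box (GGGCGG) and the E-box (CANNTG), searched on both strands without overlap between them.
Calcr, chr6:3763574-3763873: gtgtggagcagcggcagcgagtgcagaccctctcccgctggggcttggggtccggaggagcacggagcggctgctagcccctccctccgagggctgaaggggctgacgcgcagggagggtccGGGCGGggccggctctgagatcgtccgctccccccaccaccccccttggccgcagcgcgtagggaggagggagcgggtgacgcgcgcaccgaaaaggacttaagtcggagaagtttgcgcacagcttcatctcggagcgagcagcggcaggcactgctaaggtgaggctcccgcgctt
Calcr, chr6:3764664-3764963: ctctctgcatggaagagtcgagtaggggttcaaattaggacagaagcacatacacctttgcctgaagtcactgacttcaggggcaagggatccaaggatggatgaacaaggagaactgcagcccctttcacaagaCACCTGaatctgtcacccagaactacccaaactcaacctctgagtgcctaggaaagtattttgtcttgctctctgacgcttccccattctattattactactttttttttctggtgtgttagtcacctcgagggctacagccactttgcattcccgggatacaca
The region nearer the hairpins is rich in G and C, at 70.0%, and holds 29 CpG dinucleotides, whereas the farther one is at 47.3% and holds 4. The median over all 32851 RefSeq start regions is 7, and 12.9% of them hold at least 29. The nearer region has 1 GC box and no E-box, and the farther one has 1 E-box and no GC box. A GC box is found in 35.7% of all start regions and an E-box in 72.3%. Neither Calcr region has a TATA box (TATAAA), found in 13.6% of all, or the SMAD palindrome (GTCTAGAC), found in 0.213%, on either strand. The messenger RNA of Calcr was not measured in this small RNA data, so which start was in use cannot be told from it.

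The libraries were small and of unequal depth. The total microRNA count was 139104 and 139360 in the EB samples and 557250 and 557643 in the ESC samples, so the ESC libraries were 4.0 times deeper. The samples of a group agreed more closely than counting error allows. Divided by its degrees of freedom, chi-square came to 0.284 between the EB samples and to 0.235 between the ESC samples, against 0.741 to 1.29 in simulated pairs of independent libraries. The samples of a group were therefore counted as 1 library, by their mean, and the comparison has no replicate check and no p-value. Intervals below are exact at 95% and cover counting error only, since each group counted as 1 library. They may be too narrow even for that, because reads without molecular identifiers are not independent molecules. MicroRNAs enriched in other cell types bear on the labels. The 11 listed pluripotency microRNAs summed to 81509 counts in each EB sample and to 295594 and 295634 in the ESC samples. These raw sums are not corrected for the 4.0 times greater depth of the ESC libraries. After scaling, 6 of the 11 were higher in the EB library by 2-fold or more and 4 were lower by as much. The median log2 fold of the 11 was 2.04. The higher ones were mir-302a, mir-302b, mir-302c and mir-302d, at log2 folds of 6.55 to 7.47, mir-294 at 2.04 and mir-367, at 0 in the ESC samples. The lower ones were mir-290a, mir-291a, mir-293 and mir-295, at -2.90 to -1.10. The 6 listed neuronal entries summed to 262 counts in each EB sample and to 5334 counts in each ESC sample. After scaling, all 6 were lower in the EB library by 2-fold or more, at a median log2 fold of -2.375. By these medians pluripotency entries were higher, and neuronal entries lower, in the samples labelled as EBs. The liver marker mir-122 had 1 count in each EB sample and 0 in each ESC sample, as did the muscle marker mir-1a-1, while its copy mir-1a-2 was at 0 in all 4. The 4 blood entries summed to 126 and 124 counts in the EB samples and to 70 and 74 in the ESC samples, nearly all of it mir-142a, at a log2 fold of 2.65, with mir-144 and mir-451a at 0 in both EB samples. The part of these cell types in the values of the members was not tested.

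The entry mir-489 was scarce in ESCs and well represented in EBs. It had 233 and 245 counts in the EB samples, against 6 and 10 counts in the ESC samples. In CPM, counts scaled to 1e6 per library, this was 1675 and 1758 in the EB samples, against 10.8 and 17.9 in the ESC samples. The groups did not overlap in CPM, as was so for 94.6% of the 367 entries that passed a filter on low counts, 53.4% with the EB samples higher and 41.1% with them lower. The samples of a group nearly repeat each other, so nothing is read from that. The ESC counts, though small, were above a floor of 3 counts, which stands for 5.38 CPM at ESC depth. By mean count mir-489 was the 58th of 626 entries in the EB library and the 364th in the ESC library.

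With libraries scaled by TMM, the trimmed mean of M-values, mir-489 was 98.3-fold higher in the EB library than in the ESC library (interval 49.1 to 230), a log2 fold of 6.62 (5.62 to 7.85). At the scaled ESC level the EB library would have held 2.43 counts of mir-489, against the 239 it held on average. The width of the interval comes from the ESC side, where the mean was 8 counts. In the authors' deposited normalized values, whose 4 columns share a common distribution, mir-489 stood at 797.5 and 819 in the EB samples and at 4 and 7 in the ESC samples.

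The entry mir-653 differed in the same direction but near the limit of detection. It had 7 counts in each EB sample and 1 count in each ESC sample. By library total this was 50.3 and 50.2 CPM in the EB samples and 1.80 and 1.79 CPM in the ESC samples. The EB counts were above the floor of 3 counts, 21.6 CPM at EB depth, and the ESC counts were below it, so a level of mir-653 in ESCs was not resolved at this depth. The TMM-scaled ratio was 23.0 (2.96 to 1038), a log2 fold of 4.53 (1.57 to 10.02). The interval is wide because it rests on a single ESC count. The authors' deposited normalized values were 14.75 and 14 in the EB samples and 0.5 in each ESC sample.

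**Figure D1:**
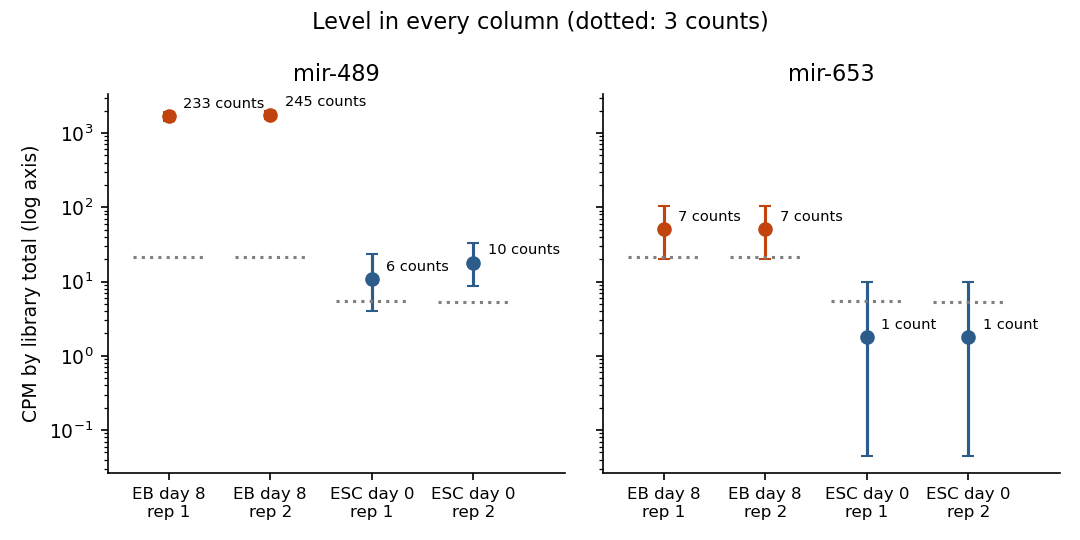
Level of mir-489 (left) and mir-653 (right) in each sample, in CPM by library total on a log axis, with exact 95% counting intervals as bars, the count beside each point and dotted lines at 3 counts. The EB points (orange) lie above the ESC points (blue) in both panels, and the ESC points of mir-653 lie under the dotted line.

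Together the pair took 0.177% of EB counts (exact Clopper-Pearson interval 0.155 to 0.200), against 0.00161% of ESC counts (0.000738 to 0.00307). Its summed counts were 240 and 252 in the EB samples and 7 and 11 in the ESC samples, a TMM-scaled ratio of 89.9 (46.6 to 199). Nearly all of the sum was mir-489. In these bulk samples, more cells that make the microRNAs and more of them per cell cannot be told apart.

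Both entries were among the 367 of 626 that passed the filter on low counts. They passed through their EB counts alone, so a difference was a condition of being measured, and mir-653 did so with 16 counts over the 4 samples, where the filter asks for 15. In the EB library 123 of the measured entries, or 33.5%, were higher by 2-fold or more and 111, or 30.2%, lower by as much, with a median log2 fold of 0.07. At least 16-fold, a size picked after the values were seen, was reached by 15 entries or 4.09%, among them both members. By log2 fold mir-489 ranked the 4th of 367, below mir-302d, mir-302a and mir-302b, and mir-653 ranked the 13th, level with mir-742. These places describe the members and were known when the pair was chosen.

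**Figure D2:**
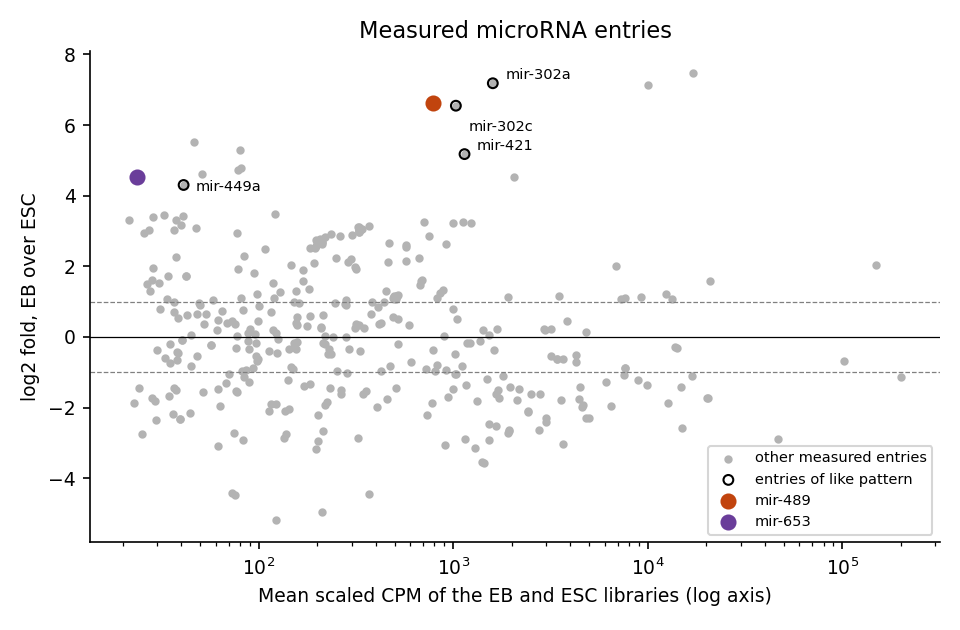
Log2 fold (EB over ESC, TMM-scaled) of the 367 measured entries against their mean scaled CPM on a log axis, with dashed lines at 2-fold and rings around 4 of the entries most like a member in level. The points of mir-489 (6.62) and mir-653 (4.53) lie at the upper edge, mir-653 among the least abundant entries and on the same point as mir-742, and a count of 0 opposite more than 3 is drawn at 3.

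The 2 members were far from equal in level within each library. In the EB library there were 34.1 counts of mir-489 for each count of mir-653, so mir-489 made up 97.2% of the pair (94.2 to 98.9). In the ESC library the ratio was 8 to 1, and mir-489 made up 88.9% of the pair (51.8 to 99.7). The 2 entries differ in hairpin and mature length, and counts are not corrected for how well each mature form is ligated or read.

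Whether the members differed by the same factor could not be resolved at this depth. The log2 fold of mir-489 exceeded that of mir-653 by 2.09, with an exact interval of -3.57 to 5.34 that needs no scaling between libraries. The interval spans no difference, a smaller and a much larger change of mir-489. A single ESC count of mir-653 leaves it that wide.

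Hairpins this close on a strand are often cut from a shared transcript, so the pair was set beside other neighbours. Among hairpins placed by name in GENCODE, there were 157 other neighbouring pairs with at most 10 kb between measured hairpins on the same strand. In 127 of them both hairpins lay on the same side of no difference, as did mir-489 and mir-653. The median size of the difference in log2 fold within a pair was 0.95, and 17 pairs had a larger one than the 2.09 of mir-489 and mir-653. The median size of the log2 ratio of EB counts was 1.15, and 3 pairs had a larger one than the 5.09 of the Calcr pair. Those 3 were mir-302d with mir-367, mir-16-1 with mir-15a, and mir-291b with mir-293. Outside the repeat cluster of Sfmbt2 there were 93 pairs, with medians of 0.93 and 1.38. Many of these hairpins share clusters, and some share sequence, so the pairs are not independent.

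**Figure D3:**
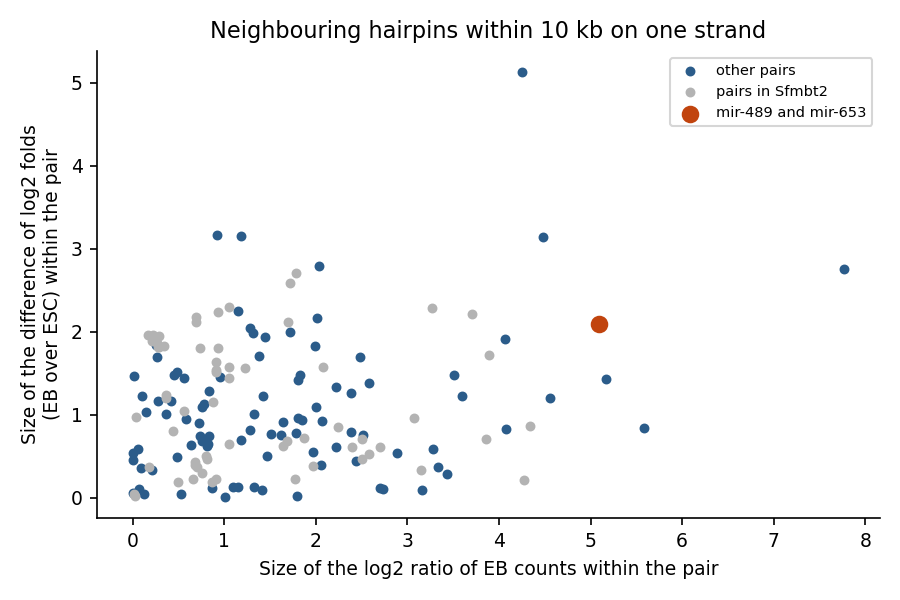
Neighbouring measured hairpins within 10 kb on a strand, with the size of the log2 ratio of EB counts within the pair on the x axis and the size of the difference in log2 fold (EB over ESC) on the y axis. The pair of mir-489 and mir-653 (orange) lies at 5.09 and 2.09, to the right of nearly all other pairs.

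The Calcr pair was also set beside microRNAs of other host genes. Outside Sfmbt2, 105 other measured entries were placed within a protein-coding gene on its own strand. By a 2-fold limit 16 of these, or 15.2%, were higher in the EB library, 42 were lower and 47 differed by less. Their median log2 fold was -0.52. With Sfmbt2 counted in there were 170, of which 67, or 39.4%, were higher and 42 lower, at a median of 0.35. The share higher was 33.5% over all 367 measured entries. It was 26% over the 167 placed outside protein-coding genes on their strand. A single one of the 105 was at least 16-fold higher, mir-449a in Cdc20b, with 12 counts in each EB sample and 2 in each ESC sample. The members are not counted among the 105 or the 170.

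The closest case in kind is the pair mir-224 and mir-452 in Gabre, which encodes a subunit of the GABA-A receptor. The counts of mir-224 were 6 and 8 in the EB samples and 11 in each ESC sample, a log2 fold of 1.07 (-0.54 to 2.56). Those of mir-452 were 4 and 10 in the EB samples and 4 and 12 in the ESC samples, a log2 fold of 1.53 (-0.17 to 3.18). Both intervals include no difference. They belong to a list of 14 microRNAs in genes picked as receptors or adhesion molecules, of which 7 were measured. Of the 7, 4 were higher in the EB library by 2-fold or more, 1 lower and 2 between these limits, at a median of 1.07. The shares over all measured entries were 33.5% higher and 30.2% lower. The other 2 higher entries, mir-218-1 and mir-218-2, lie in Slit2 and Slit3, which encode secreted guidance proteins and not receptors, at log2 folds of 2.55 (2.15 to 2.95) and 2.59 (2.19 to 3.0). They are copies with the same mature form and nearly equal counts. The lower entry was mir-211 in the channel gene Trpm1, with 1 count in each EB sample and 73 in each ESC sample. The entries between the limits were mir-126a, an endothelial microRNA in Egfl7, at 0.19 (0.04 to 0.34), and mir-139 in Pde2a, at 0.32 (-0.34 to 0.94).

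A shared seed links mir-489 to a second microRNA with the opposite difference. The seed of miR-489-3p, AUGACAC, was also that of miR-425-5p, the only other of 1679 mature mouse microRNAs in the RefSeq table with it. The other 3 seeds of the members had no second bearer there. The sequences are shown for what they share, with the seed in capitals.
miR-489-3p: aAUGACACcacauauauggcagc
miR-425-5p: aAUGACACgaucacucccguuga
Outside the seed they diverge, with 11 mismatches over 23 positions compared without gaps from the 5′ end. The gene of miR-425 lies on chromosome 9.

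The entry mir-425 had 157 and 153 counts in the EB samples, against 2505 and 2517 counts in the ESC samples. It was 4.92-fold lower in the EB library (4.19 to 5.83), a log2 fold of -2.30 (-2.54 to -2.06). The direction was opposite to that of mir-489. Counted together, the 2 entries summed to 390 and 398 counts in the EB samples and to 2511 and 2527 counts in the ESC samples, a log2 fold of -0.96 (-1.11 to -0.80). In the EB library mir-489 made up 60.7% of this sum, and in the ESC library 0.318%. These counts are per hairpin, so they stand for the shared seed only as far as the reads of both came from the arms that carry it, which the table does not show. The sum was chosen after the values were seen, and its size depended on the processing. It was -0.68 by library totals and -0.27 in the authors' deposited normalized values, against -1.01 with DESeq2 size factors and -1.11 without a filter.

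**Figure D4:**
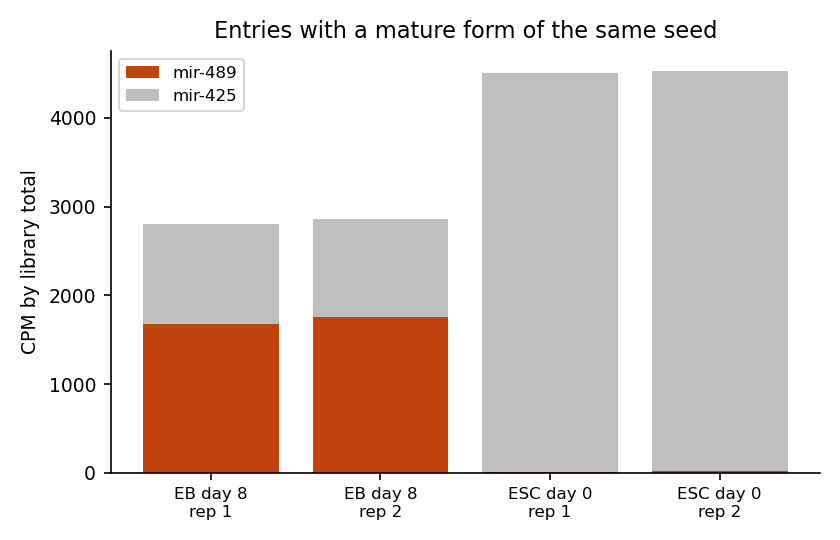
CPM by library total of mir-489 (orange) and mir-425 (grey), stacked, in each sample. In the EB samples mir-489 is the larger part, with 1675 and 1758 CPM, and in the ESC samples it is barely visible, at 10.8 and 17.9 CPM.

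The entries most like each member over both libraries were found by distance on log2 scaled CPM, with 0.5 counts added. For mir-489 the nearest was mir-302c, at a distance of 0.58, with 314 and 312 counts in the EB samples and 9 and 13 in the ESC samples. Next came mir-302a at 1.11, mir-421 at 1.96, mir-467a-5 at 2.46 and mir-467a-10 at 2.46. The entries mir-302a and mir-302c belong to the miR-302 cluster of primed pluripotent cells, mir-421 to the X-linked gene region of Ftx, and the copies of mir-467a to the Sfmbt2 repeat cluster. For mir-653 the nearest was mir-742, with 8 and 6 counts in the EB samples and 1 in each ESC sample, at a distance of 0. Then came mir-1258 at 0.77, mir-463 at 0.95, mir-465c-1 at 1.02 and mir-449a at 1.04. Likeness over only 2 libraries, and for mir-653 at so few counts, says little beyond a like level in each.

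Among the entries that the annotation placed by name, no other measured one lay within 26.4 Mb of the pair. It left 46 of the 626 entries unplaced, measured ones among them, so a nearer entry could be missed. The annotation placed 20 entries on chromosome 6, members included. The nearest of the placed measured entries were mir-182, mir-96 and mir-183, an epithelial and sensory cluster 26.4 to 26.5 Mb away, and mir-335 in the imprinted gene Mest, 27.0 Mb away. Of the 9 measured entries placed on this chromosome other than the members, 1 was higher in the EB library by 2-fold or more. Of the rest, 3 were lower by as much and 5 differed by less. The shares over all 367 measured entries were 33.5% higher and 30.2% lower. The median log2 fold of the 9 was 0.23. Those differing by less were mir-141 at 0.98, mir-29b-1 at 0.41, mir-29a at 0.28, mir-200c at 0.23 and mir-148a at -0.80, while mir-96 stood at -1.61 and mir-183 at -1.07. The higher one was mir-335, with 180 and 188 counts in the EB samples and 249 and 259 in the ESC samples, 2.38-fold higher after scaling (1.96 to 2.89). The lowest was mir-182, 5.93-fold lower (5.48 to 6.42).

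**Figure D5:**
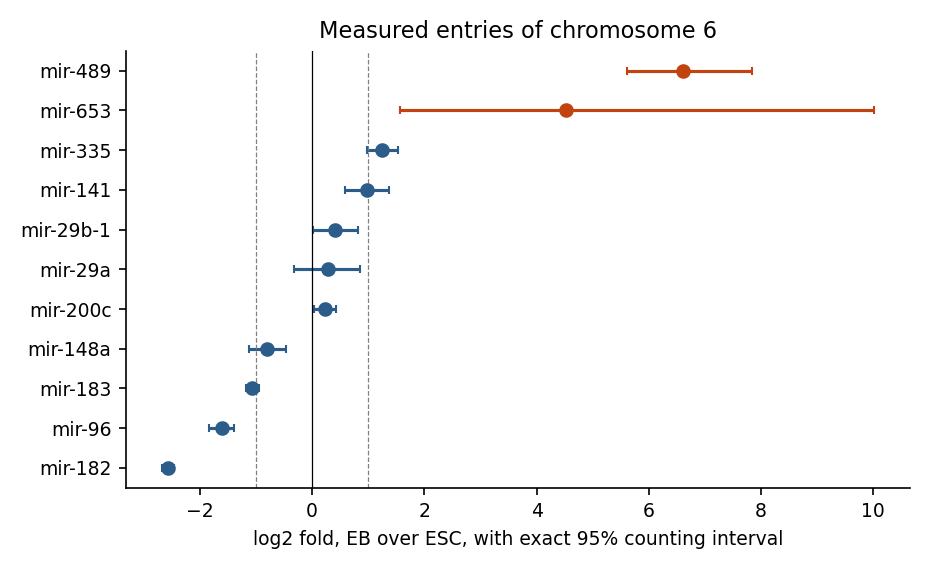
Log2 fold (EB over ESC, TMM-scaled) of the measured entries placed by name on chromosome 6, with exact 95% counting intervals as bars and dashed lines at 2-fold. The members (orange) are the top 2 rows, at 6.62 and 4.53, and the next, mir-335, is at 1.25.

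MicroRNAs linked to satellite cells, muscle and bone, where Calcr and miR-489 are known, were taken as lists. Of 10 entries linked to satellite cell quiescence or to the myogenic programme, 8 were measured. Of these, 0 were higher in the EB library by 2-fold or more, 6 were lower by as much and 2 in between. The shares over all measured entries were 33.5% higher and 30.2% lower. The median log2 fold of the 8 was -1.28, against 0.07 over all measured entries. The largest of them, mir-708, which is enriched in quiescent satellite cells and lies in Tenm4, had 845 and 855 counts in the EB samples and 7222 and 7214 in the ESC samples, a log2 fold of -1.37 (-1.47 to -1.26). The entry mir-31, which holds back Myf5 translation in mouse satellite cells, had 139 counts in each EB sample and 1045 and 1051 in the ESC samples, a log2 fold of -1.20 (-1.46 to -0.94). The entries mir-27a and mir-27b, which target Pax3 in mouse muscle progenitors, stood at -2.91 (-3.33 to -2.52) and -1.81 (-2.13 to -1.49). The entry mir-195a, of the miR-15 family, was at -1.05 (-1.36 to -0.75) and mir-127, of the Dlk1-Dio3 cluster, at -1.84 (-2.71 to -1.08). The intervals of mir-497a and mir-29a, at 0.07 and 0.28, included no difference.

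The muscle microRNAs that had an entry were almost unseen. Of 12 on the muscle list, 6 were among the 626 entries and none of these was measured. The listed entries of miR-133, miR-206 and miR-208 were not among the 626, so no count of them was available. The 6 summed to 7 counts in each EB sample, against 17 and 23 counts in the ESC samples, most of it mir-499. The entry mir-1a-1, of the cardiac and skeletal muscle microRNA miR-1, had 1 count in each EB sample and 0 in each ESC sample. A difference in these entries was not detectable at this depth.

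Of 12 entries linked to osteoclasts and bone, 10 were measured. Of these, 2 were higher in the EB library by 2-fold or more and 8 lower by as much. The shares over all measured entries were 33.5% higher and 30.2% lower. The median log2 fold of the 10 was -2.65. The higher ones were mir-34c, with 115 counts in each EB sample and 87 in each ESC sample (log2 fold 2.12, 1.71 to 2.54), and mir-155, with 22 and 32 counts in the EB samples and 35 and 27 in the ESC samples (1.52, 0.72 to 2.31). The myeloid microRNA mir-223, which marks the lineage osteoclasts come from, had 1 count in each EB sample and 0 in each ESC sample. Among the lower ones, mir-21a was at -1.21 (-1.32 to -1.11), mir-34a at -1.27 (-1.40 to -1.14), and the copies mir-124-1, mir-124-2 and mir-124-3 between -2.73 and -2.65, with mir-211 the lowest at -4.47 (-9.79 to -1.95). The copies mir-125b-1 and mir-125b-2 stood at -3.18 (-4.65 to -2.03) and -2.96 (-4.30 to -1.89), on 6 and 7 counts in the EB samples. Several of these are copies with a shared mature form, so the count of entries weighs them singly. The copies of mir-124 are also on the neuronal list, and the median of the bone list lies among their values. The part of satellite, muscle or bone-lineage cells in the values of mir-489 was not tested.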

How the data were processed

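Small RNA isolated with the mirVana kit was sequenced on an Ion Torrent PGM, per the labels' protocols. For the aligner, the build and the microRNA release, nothing is given in the sources used here. Per gene, the authors deposited original counts, with no normalization, and a normalized signal with 1 set of values in all 4 columns, as quantile normalization gives, per the file headers and values. Original counts from the mir-664 row on, over 170 rows, sat 1 row too low and were moved up. Both members stand above that row, where counts and normalized values had a rank correlation of at least 0.9985. The 4 counts of mir-99b were reconstructed from the normalized values, as 1 of 7280 candidate sets returned them all.

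Entries were kept by filterByExpr of edgeR 4.0.16 (minimum count 10, minimum total 15) and scaled by TMM over the 4 columns. Folds are ratios of mean counts with exact conditional binomial intervals. A 0 opposite a count above 3 was set to 3. The fold calculation was tested on simulated counts. With each group counted as 1 library, no test across entries was run, in place of edgeR's quasi-likelihood test. Alternatives were library totals, DESeq2 1.42.0 size factors, the normalized values, other filters, unmoved counts and leaving out each replicate. The named entries are the members, the 5 nearest to each in level, the nearest 4 on chromosome 6, seed partners, muscle core entries and those of the lists whose mean CPM reached 50; others were named after their values were seen. Members and lists were chosen with earlier results of these data known. Positions are from GENCODE M21 (GRCm38), which placed 580 of the 626 entries by name. RefSeq hairpins matched 446 entries. R 4.3.3, Python 3.11.15 and scipy 1.17.1 were used.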

Additional observations from a re-analysis of the deposited data

How the results depend on the processing

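The direction and the side of 2-fold of mir-489, mir-653 and their sum were the same under every scaling, source and replicate setting run. This is no test of the difference, since the members were chosen for it. Leaving out a sample says nothing about replication, because the samples of a group nearly repeat each other. The log2 fold of mir-489 was 6.47 to 7.2 over other scalings, no filter, unmoved counts and the normalized values, and 6.24 to 7.0 when a replicate was left out. That of mir-653 was 4.38 to 4.84 and 4.47 to 4.80, although with any 1 sample left out it no longer passed the filter. The sum was 6.34 to 7.10 and 6.15 to 6.82, and the difference between the members 2.09 to 2.35 and 1.77 to 2.51. With a mean of at least 10 counts asked of each library neither member was kept, so no fold could be given, and 73 entries were at least 2-fold higher, against 123 and a range of 108 to 132 when a replicate was left out. The number at least 2-fold lower, 111 as reported, was 98 to 103 when a replicate was left out and 83 to 134 otherwise. Lower entries outnumbered higher ones with that stricter filter (83 against 73), without a filter (134 against 115) and in the normalized values (116 against 106), unlike the reported 123 higher and 111 lower. The pair's EB share was 0.236% in the normalized values and 0.172 to 0.181% when a replicate was left out, and its ESC share 0.00126 to 0.00197%. The sum of mir-489 and mir-425 was at -0.70 to -1.02 when a replicate was left out. No paired analysis was possible because each group counted as 1 library and no test was run. Depth limits mir-653 most, with 1 count in each ESC sample.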
